A study of Homo sapiens with 66 samples.

Results

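Targeted protein degraders such as dTAG7, dBET6 and THAL-SNS-032 borrow a cellular ubiquitin ligase, and the transcripts of that ligase were followed here through the treatments that depend on it. The set held 8 genes of the 13331 in the count table: the cereblon receptor CRBN, the adaptor DDB1, the scaffolds CUL4A and CUL4B, the RING protein RBX1, the ubiquitin-conjugating enzymes UBE2G1 and UBE2D3, and FKBP1A, which encodes the FK506-binding protein from which the dTAG tag is derived. They were chosen by name, through the gene symbols that GENCODE 29 gives for the Ensembl identifiers, with no threshold on their values, although earlier results of these data were known when the set was drawn up. All 8 were counted in all 66 libraries and passed the filter on low counts. RNA of KBM7, an established human chronic myeloid leukemia line, had been measured by QuantSeq 3' sequencing in 22 groups of 3 wells each, with replicate letters A to C. The groups covered wild-type cells and 9 lines whose genotype carries a dTAG either on CDK9, the P-TEFb kinase, or on 1 of 8 Mediator subunits, which were MED31, MED28, MED26, MED14, MED12, MED10, MED6 and MED1. Each of the 10 lines had a DMSO group and a group given 500 nM dTAG7, and wild-type cells were also given 100 nM dBET6 or 250 nM THAL-SNS-032. All exposures lasted 6 h. The labels used here do not say where the tag sits, how it was inserted or whether a line is 1 clone, so a difference between lines cannot be told apart from a difference between clones or cultures. The replicates were wells seeded in parallel, so that p-values rest on the spread among these wells alone, and that spread may be technical.

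Cereblon is the substrate receptor of a cullin-RING ligase: DDB1 holds it on CUL4A or CUL4B, and RBX1, bound to the other end of the cullin, brings in a ubiquitin-conjugating enzyme. UBE2D3 attaches the first ubiquitin and UBE2G1 extends the chain, which marks the substrate for the proteasome. A heterobifunctional degrader joins a cereblon ligand to a ligand of the target, so dTAG7 brings tagged proteins, dBET6 the BET bromodomain proteins and THAL-SNS-032 the kinase CDK9 to this ligase. FKBP12, the product of FKBP1A, is a small peptidyl-prolyl isomerase that binds FK506 and rapamycin, and dTAG ligands are built to prefer a mutant form of it over the cellular protein.

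The 8 genes lie on 8 chromosomes in hg38 with GENCODE 29 annotation. CRBN is at chr3:3144628-3179727 on the minus strand, DDB1 at chr11:61299451-61342596 (minus), CUL4A at chr13:113208193-113267108 (plus) and CUL4B at chrX:120524609-120575794 (minus). RBX1 is at chr22:40951347-40973309 (plus), UBE2G1 at chr17:4269259-4366628 (minus), UBE2D3 at chr4:102794383-102868896 (minus) and FKBP1A at chr20:1368978-1393172 (minus). QuantSeq reads come from the 3' end, and at 2 of the 8 genes another counted gene on the opposite strand covers that end: TRNT1 over CRBN and SDCBP2-AS1 over FKBP1A. The strand setting of the counting is not given in the sources used here, so reads of these partners cannot be told apart with certainty. In GENCODE 29 the protein-coding gene AL136531.2 (chr20:1317571-1393096), on the same strand as FKBP1A, also covers the FKBP1A 3' end. It is not in the count table, and its effect on the FKBP1A counts was not tested. Reads of a tag made from FKBP12 could also be assigned to FKBP1A or be lost, and their part in the FKBP1A counts was not tested.

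The sequences before the transcription starts are shown for CRBN, UBE2G1 and FKBP1A, the receptor, the enzyme and the tag parent on which the results below turn. They are the 250 bases before the most upstream start that RefSeq lists on GRCh38.p14, 5' to 3' on the gene's strand, at chr3:3179718-3179967 for CRBN, chr17:4366676-4366925 for UBE2G1 and chr20:1393055-1393304 for FKBP1A. Capitals mark matches, on either strand, to any of 6 motifs, whose letters are given with their counts after the sequences.
CRBN: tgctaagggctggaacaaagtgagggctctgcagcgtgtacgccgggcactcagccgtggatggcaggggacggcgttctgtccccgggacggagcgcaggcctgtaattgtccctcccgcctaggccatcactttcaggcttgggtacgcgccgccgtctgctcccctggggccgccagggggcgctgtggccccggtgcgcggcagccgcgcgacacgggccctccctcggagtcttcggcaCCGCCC
UBE2G1: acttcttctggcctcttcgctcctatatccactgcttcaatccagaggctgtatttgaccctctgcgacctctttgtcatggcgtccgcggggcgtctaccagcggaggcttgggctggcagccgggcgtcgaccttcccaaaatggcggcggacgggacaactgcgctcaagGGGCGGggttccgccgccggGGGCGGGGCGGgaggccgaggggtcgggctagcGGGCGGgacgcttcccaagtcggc
FKBP1A: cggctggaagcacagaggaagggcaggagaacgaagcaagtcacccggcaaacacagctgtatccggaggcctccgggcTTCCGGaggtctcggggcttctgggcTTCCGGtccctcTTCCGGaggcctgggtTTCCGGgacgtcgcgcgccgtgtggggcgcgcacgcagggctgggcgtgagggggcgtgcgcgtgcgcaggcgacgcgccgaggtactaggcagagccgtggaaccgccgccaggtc
The CRBN window held 1 GC box at its very end, the UBE2G1 window 4 GC boxes, 2 of them overlapping, and the FKBP1A window 4 ETS cores and no GC box. Among the 8 genes, a GC box, written GGGCGG, was found before 5 (CRBN, DDB1, RBX1, UBE2G1 and UBE2D3), against 42.6% of all 35116 windows of the same length. An ETS core, CCGGAA, was found before 2 (CUL4B and FKBP1A), against 14.5% of all windows, and a TATA box, spelled TATAAA, before none of the 8, against 10.7%. A CCAAT box, spelled as in its name, occurred before CUL4B and UBE2D3 and in 32.0% of all windows. An E-box with the letters CACGTG occurred before RBX1 and in 6.34% of all windows. The YY1 core searched was AAGATGG, which occurred before CUL4A and in 3.70% of all windows. GC content ran from 43.6% (CUL4B) to 76.8% (RBX1), with a median of 58.0% over all windows. A match of letters is a description and shows no bound site.

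Libraries held 439261 to 4337368 counts on genes and 10950 to 72684 on the synthetic spike-in RNAs, of which equal amounts had gone into each lysate. Levels are given in CPM, counts scaled to a common library size, on 2 scales. The spike-in scale takes the spike-in total as library size and so follows RNA per harvested culture, on which fewer cells and less RNA per cell cannot be told apart. The TMM scale (trimmed mean of M values) takes the bulk of the genes as constant and so shows a gene against the other genes. Gene counts per spike-in count stood at 19.2% of DMSO after dTAG7 in the CDK9 line, 17.6% after THAL-SNS-032, 11.3% after dBET6 and 63.2% after dTAG7 in the MED14 line. They stood at 82.3% in the MED6 line, 86.2% in the MED10 line and between 90.6% and 106% in the other 6 comparisons. Of 10 markers chosen for KBM7, MYB (728 CPM) and CD34 (237 CPM) had the highest median DMSO levels on the spike-in scale. CEBPA, ABL1, GATA2 and KIT read 154, 146, 105 and 69.8 CPM. CD33 (30.2 CPM), SPI1 (23.8 CPM) and BCR (11.4 CPM) were lower, and the myeloid enzyme MPO was near 0 (1.48 CPM). Of 15 markers of other cell types, 6 were not in the count table (EPCAM, CDH1, COL1A1, COL1A2, PDGFRB and VWF). CD3G and MS4A1 had medians of 0.407 and 0.156 CPM. KRT18 was highest (32.8 CPM), above CD33, SPI1, BCR and MPO, and PECAM1 (16.2 CPM) and CD3D (13.6 CPM) were above BCR. The members' raw counts per library ran from 22 to 247 for CRBN and from 16 to 270 for UBE2G1, the lowest of them in degrader-treated libraries, and from 209 to 1579 for FKBP1A.

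In DMSO, before any degrader was added, transcript levels of the ligase and FKBP1A lay close together in the 10 lines. The highest and lowest of the 10 line means, on the spike-in scale, differed by 1.28-fold for CRBN, 1.35-fold for DDB1, 1.44-fold for CUL4A, 1.46-fold for CUL4B, 1.39-fold for RBX1, 1.29-fold for UBE2G1, 1.33-fold for UBE2D3 and 1.42-fold for FKBP1A. Of the 72 comparisons of a tagged line with wild type (8 genes in 9 lines, all sharing the wild-type DMSO libraries), 1 was called by edgeR's quasi-likelihood test with Benjamini-Hochberg adjustment over all genes at 0.05: FKBP1A in the MED28 line, 0.43 ± 0.12 log2 (SE, adjusted p = 0.0479, n = 3 against 3). Its DMSO wells read 663, 589 and 615 CPM in the MED28 line and 479.5, 466 and 443 CPM in wild type. The MED28 wells were all above every wild-type well, and the median of all genes in that comparison was 0.23 log2 on this scale. The call was lost without any 1 of the 6 libraries, with adjusted p from 0.0627 to 0.268. With TMM factors the difference was 0.20 log2 and did not pass (adjusted p = 0.794).

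The share of all genes called in these baseline comparisons on the spike-in scale was 1.94% for MED28, 1.73% for CDK9, 0.408% for MED1, 0.408% for MED6, 0.32% for MED10, 10.5% for MED12, 10.4% for MED14, 0.919% for MED26 and 8.29% for MED31. In the lines other than MED28, edgeR called 0 members, 1 member difference (CUL4B in MED14, -0.37 log2) had an unadjusted p under 0.05, and DESeq2 called 0. That CUL4B difference was called by edgeR with the libraries of its comparison alone (-0.37 log2, adjusted p = 0.0135). It was also called without the wild-type DMSO library A (-0.44, 0.0495). In the MED28 line 4 members had an unadjusted p under 0.05, and DESeq2 also called RBX1 there (0.31 log2, adjusted p = 0.0288). TMM scaling gave 0 edgeR calls among the 72, with 3 at an unadjusted p under 0.05 and differences from -0.21 to 0.28 log2, and scaling by median of ratios also gave 0. The corresponding shares of all genes were 0.535% for MED28, 2.09% for CDK9, 0.52% for MED1, 0.628% for MED6, 0.496% for MED10, 13.5% for MED12, 5.85% for MED14, 1.23% for MED26 and 9.39% for MED31.

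By line, the MED28 line had the highest DMSO mean on the spike-in scale for all members but CUL4B, for which it stood level with the MED1 line. The median of all genes was shifted the same way against wild type, by 0.23 log2 in the MED28 and -0.19 in the MED14 line. The medians of the members were 0.26 and -0.16, so the order of these lines is largely that of genes at large. CRBN ran from 83.8 ± 9.88 CPM (mean ± SD, n = 3) in the MED28 line through 74.3 ± 10.5 in wild type to 65.7 ± 2.46 in the MED14 and 65.4 ± 7.66 in the MED1 line, and all neighbours in that order overlapped. FKBP1A ran from 622 ± 37.4 in the MED28 line, clear of the next line (MED12, 544 ± 16.7), to 463 ± 18.6 in wild type and 439 ± 18.5 in the MED14 line, with overlap between all other neighbours. UBE2G1 ran from 102 ± 6.86 (MED28) to 79.6 ± 4.37 (MED14), DDB1 from 349.8 ± 37.8 (MED28) to 259 ± 47.6 (MED12), and UBE2D3 from 688 ± 49.3 (MED28) to 518 ± 15.8 (MED14), each without a gap. CUL4A was 236 ± 36.6 in the MED28 line and at most 198 ± 4.83 elsewhere, down to 164 ± 6.54 in the MED14 line. CUL4B levels ran from 304 ± 25.6 (MED1) and 304 ± 24.6 (MED28) to 208 ± 8.85 (MED14), and RBX1 from 295 ± 18.2 (MED28) to 213 ± 14.9 (MED14). Gaps between neighbours occurred below MED28 for CUL4A, CUL4B, RBX1 and FKBP1A and above MED14 for RBX1.

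A single test over the 10 DMSO groups, which chose no pair, called CUL4B (adjusted p = 0.0329), RBX1 (0.0272) and FKBP1A (0.025) on the spike-in scale (edgeR with Benjamini-Hochberg adjustment, where 40.7% of all genes were called) and DDB1 alone (0.0354) on the TMM scale, where 26.8% were. The number called on the spike-in scale rested on single libraries: it was 0 without the MED14 DMSO library A or the MED28 DMSO library A, and 1 without the MED14 DMSO library B or the MED28 DMSO library C. The order of lines differed on the TMM scale, with MED28 leading only for CUL4A, and the highest and lowest line means were 1.25-fold apart for CRBN, 1.22-fold for UBE2G1 and 1.21-fold for FKBP1A. FKBP1A was higher than in wild type in every tagged line on that scale, from 0.02 (MED10) to 0.28 log2 (MED12), with none called. On the spike-in scale it was higher in all but the MED14 line (-0.07 log2). These differences share the wild-type DMSO libraries, and the part of tag reads in them was not tested.

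**Figure D1:**
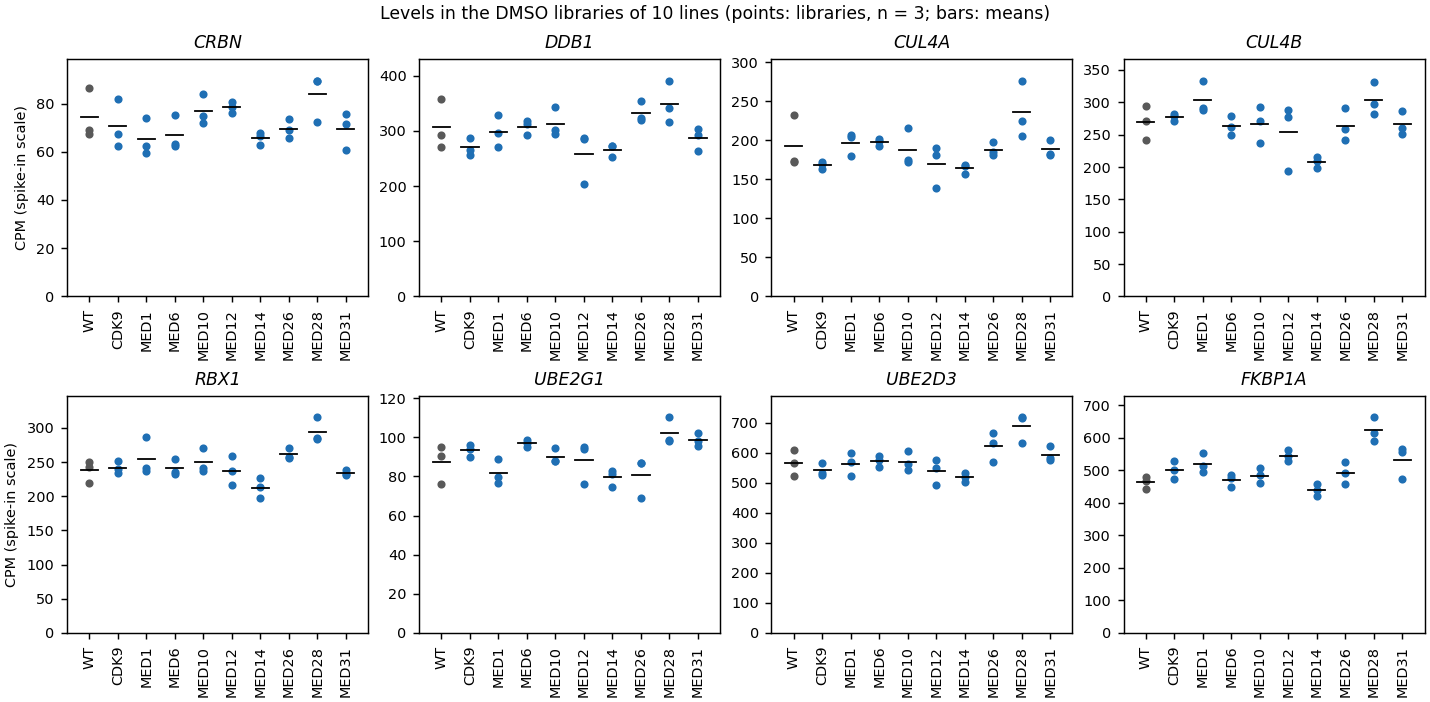
DMSO levels of the 8 genes in CPM on the spike-in scale (vertical axes, from 0) in wild type (grey) and the 9 tagged lines (blue). Points are single libraries (n = 3 per line) and bars are means. Each gene's line means lie within 1.46-fold of each other, and the MED28 mean is the highest or level with the highest in every panel. Single MED28 points can lie lower, as for CRBN, where the lowest (72.4 CPM) is below the wild-type mean (74.3 CPM). The median of all genes was also higher in the MED28 line (0.23 log2 against wild type).

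dTAG7 itself, given to wild-type cells that carry no tag, left no detected change in the machinery it uses. CRBN read 69, 86.4 and 67.5 CPM in DMSO and 77.8, 73.3 and 76.2 CPM after dTAG7 (spike-in scale), so that the treated wells lay within the DMSO range. UBE2G1 read 90.4, 95.1 and 76.3 CPM and then 88.1, 81.9 and 93.4 CPM, again with overlap. FKBP1A read 479.5, 466 and 443 CPM and then 492, 531 and 538 CPM, with every treated well above every DMSO well, yet the difference of 0.17 ± 0.12 log2 did not pass the test (adjusted p = 0.992, edgeR). edgeR called 0 of the 8 genes, 0 had an unadjusted p under 0.05 and DESeq2 called 0; of all genes, 0% were called lower on the spike-in scale and 0% were called on the TMM scale. The 95% intervals of the 8 log2 differences stayed between -0.26 and 0.41 on the spike-in scale, and for CRBN between -0.25 and 0.33.

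Across the 12 comparisons of a treatment with DMSO in the same line, edgeR called 40 of 96 member changes on the spike-in scale, 39 lower and 1 higher, where 56 had an unadjusted p under 0.05. All 8 transcripts fell after dTAG7 in the CDK9 line, after THAL-SNS-032, after dBET6 and after dTAG7 in the MED14 line; of all genes, 95.3%, 96.2%, 97.1% and 63.3% were called lower there, so that in the first 3 of these a fall was the rule for nearly every gene. The median change of the members and of all genes was -2.67 and -2.93 log2 in the CDK9 line, -2.87 and -2.86 for THAL-SNS-032, -3.48 and -3.67 for dBET6, and -0.71 and -0.69 in the MED14 line. In the MED6 line 3 members fell (18.4% of all genes) and in the MED10 line 2 (19%). These 2 counts depended on the fit: with the libraries of each comparison alone edgeR called 0 in the MED6 and 6 in the MED10 line, and DESeq2 called 6 and 2. In the MED26 and MED31 lines 1 member fell (2.88% and 2.61% of all genes), and in the MED12 line 1 rose, where 1.57% of all genes rose and 3.4% fell. In the MED28 line edgeR called 0 members (4.07% of all genes fell), with 3 at an unadjusted p under 0.05 and 1 called by DESeq2. In the MED1 line edgeR called 0 (0% of all genes fell), with 0 at an unadjusted p under 0.05 and 0 by DESeq2, and the 95% intervals of the 8 changes lay between -0.44 and 0.33 log2.

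Against the other genes, on the TMM scale, 23 of the 96 changes were called, 14 lower and 9 higher, with 35 at an unadjusted p under 0.05. There were 5 calls in the CDK9 line, where 48.1% of all genes were called in either direction, 4 for dBET6 (41.4%), 4 in the MED14 line (30%) and 3 for THAL-SNS-032 (30%). The MED10 and MED12 lines had 2 each (18.1% and 8.76% of all genes), and the MED6, MED28 and MED31 lines 1 each (6.55%, 6.42% and 4.47%). In the MED26 line edgeR called 0 (2.38% of all genes) with 4 members at an unadjusted p under 0.05, and in the MED1 line 0 (0.00776%) with 0; scaling by median of ratios gave 0 in both. In all, 13 changes were called in the same direction on both scales: 12 falls, of which UBE2G1 had 7, CUL4A 3 and CRBN 2, and the rise of CUL4B in the MED12 line. The share of all genes called the same way on both scales was not computed, so these counts cannot be set against a background.

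**Figure D2:**
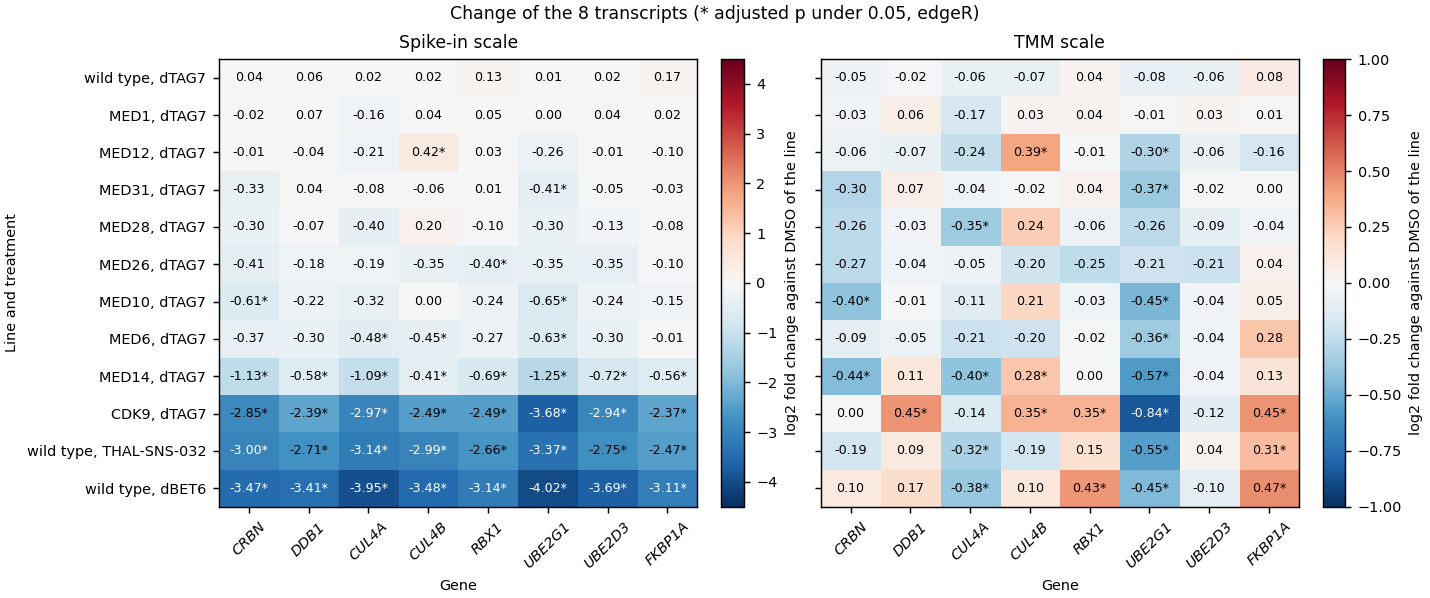
Log2 fold change of each gene (columns) against DMSO of the same line for the 12 treatments (rows), on the spike-in scale (left, colour range from -4.5 to 4.5) and the TMM scale (right, from -1 to 1). Asterisks mark an adjusted p under 0.05 (edgeR). On the left the 4 lower rows are filled with falls, while on the right the UBE2G1 and CUL4A columns are both negative in all 12 rows.

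CRBN, the receptor that all 3 degraders bind, was among the transcripts that fell. In the CDK9 line it went from 81.7, 67.2 and 62.5 CPM in DMSO to 9.41, 12.2 and 8.03 CPM after dTAG7 on the spike-in scale. Wild-type cells, at 69, 86.4 and 67.5 CPM in DMSO, went to 8.12, 7.5 and 12.9 CPM after THAL-SNS-032 and 7.03, 4.2 and 9.23 CPM after dBET6. Treated and DMSO wells were far apart in each case, with 13.9%, 12.5% and 9.0% of the DMSO level left. The log2 changes were -2.85 ± 0.18 (adjusted p = 5.84e-22), -3.00 ± 0.18 and -3.47 ± 0.18 (edgeR, SE). Relative to other genes little was left of these changes, with TMM values of 0.00, -0.19 and 0.10 log2, none of them called.

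In the line tagged on MED14, the subunit that holds the Mediator modules together, CRBN went from 62.9, 67.6 and 66.5 to 28.7, 24.6 and 35.3 CPM. The wells did not overlap, 45.8% of the DMSO level was left, and the change was -1.13 ± 0.16 log2 (adjusted p = 9.69e-09). Here the fall was also called against other genes, at -0.44 ± 0.15 log2 on the TMM scale (adjusted p = 0.0197), a call lost without the dTAG7 library A or B. In the MED10 line, which is tagged on a middle-module subunit, CRBN went from 75, 83.9 and 71.7 to 48.6, 43.5 and 57.1 CPM, again without overlap. That is -0.61 ± 0.15 log2 (adjusted p = 0.0019), and on the TMM scale -0.40 ± 0.14 (0.0416). The TMM call in the MED10 line was kept only without the dTAG7 library C and lost without any other of its 6 libraries, and median-of-ratios scaling did not call it (adjusted p = 0.054). TRNT1, the gene that overlaps the CRBN 3' end, changed by -0.78 log2 in the MED14 line (adjusted p = 0.00102) and -0.53 in the MED10 line (0.0513) on the spike-in scale, and by -0.10 and -0.32 on the TMM scale, where neither passed. The part of TRNT1 reads in the CRBN values was not tested.

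DDB1, the adaptor between receptor and cullin, passed the test in the same 4 comparisons in which all members fell. It fell from 265, 288 and 257 to 52.4, 49.4 and 52 CPM in the CDK9 line (-2.39 ± 0.15 log2, 19.1% left) and after THAL-SNS-032 (-2.71) and dBET6 (-3.41). In the MED14 line it fell from 252, 272 and 274 to 172, 191 and 173 CPM (-0.58 ± 0.13, adjusted p = 0.00016), with no overlap of wells. Against other genes DDB1 rose in the CDK9 line, by 0.45 ± 0.10 log2 (adjusted p = 0.000159), and passed in no other comparison on that scale. The 2 scales thus gave opposite directions for DDB1 in the CDK9 line: fewer transcripts per spike-in, and a larger share of the transcripts that were left.

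CUL4A and CUL4B encode alternative scaffolds of the ligase, and both fell in the 4 comparisons in which all members did. CUL4A went from 156, 168 and 167 to 76.3, 84.1 and 72.5 CPM in the MED14 line, and CUL4B from 209, 216 and 198 to 168, 139 and 159 CPM. Neither overlapped between DMSO and dTAG7, and 47.1% of CUL4A and 75.2% of CUL4B was left (-1.09 ± 0.15 and -0.41 ± 0.13 log2, adjusted p = 4.54e-09 and 0.00599). Against other genes the directions parted: CUL4A fell (-0.40 ± 0.10 log2, adjusted p = 0.00109) and CUL4B rose (0.28 ± 0.10, adjusted p = 0.0226). The CUL4B rise on the TMM scale was lost without DMSO library B or C or dTAG7 library A or C, while the CUL4A fall was called without any 1 library. The difference between the 2 genes was not itself tested.

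CUL4B gave the 1 rise of the spike-in scale, in the MED12 line. MED12 is a subunit of the Mediator kinase module, and after dTAG7 CUL4B read 317, 332 and 366 CPM against 289, 194 and 278 CPM in DMSO. DMSO library B as a whole held fewer gene counts per spike-in count (log2 6.71) than DMSO libraries A (7.03) and C (6.97). All treated wells were above all DMSO wells, DMSO well B was the lowest of the 6, and the change was 0.42 ± 0.13 log2 (adjusted p = 0.045). Without DMSO library B it was 0.26 log2 (adjusted p = 0.387), and the call was also lost without dTAG7 library A, B or C, with the libraries of that comparison alone (adjusted p = 0.373), with the replicate block (0.0531) and by limma on the loess values (0.0861). TMM-scaled wells read 194, 168 and 196 CPM in DMSO and 223, 233 and 274 CPM after dTAG7, without overlap. The TMM change was 0.39 ± 0.09 log2 (adjusted p = 0.00284), called in 5 of 6 refits that each left out 1 library and lost without dTAG7 library C (0.27, adjusted p = 0.12).

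After the 3 transcriptional degradations both cullins lost most of their transcripts. CUL4A went from 172, 169 and 163 to 18.8, 19.4 and 26.9 CPM in the CDK9 line, with 12.8% left, and 11.4% and 6.45% were left after THAL-SNS-032 and dBET6. CUL4B kept 17.8%, 12.6% and 8.95% in the same order. On the TMM scale CUL4A fell after dBET6 (-0.38 log2, adjusted p = 0.0111) and THAL-SNS-032 (-0.32, 0.0253), both lost without the wild-type DMSO library B or the treated library A. Under median-of-ratios scaling neither was called (-0.24, adjusted p = 0.124, and -0.25, 0.0864). CUL4A also fell on that scale in the MED28 line (-0.35 ± 0.09, adjusted p = 0.0102), lost without DMSO library A (-0.28, adjusted p = 0.112), and CUL4B rose in the CDK9 line (0.35 ± 0.11, 0.0049), lost without dTAG7 library A (0.19, adjusted p = 0.266).

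In the MED6 line, which is tagged on a head-module subunit, CUL4A and CUL4B fell on the spike-in scale, to 113, 164 and 150.5 CPM from 202, 193 and 199 and to 125, 233 and 223 CPM from 261, 249 and 279 respectively. Library A of the dTAG7 group was the lowest for both genes, and for DDB1 (171, 288 and 292 CPM), RBX1 (153, 221 and 227) and UBE2D3 (343, 551 and 509). That library as a whole held fewer gene counts per spike-in count (log2 6.52, against 6.82 in library B and 6.82 in library C). The calls (-0.48 and -0.45 log2, both adjusted p = 0.0135) were lost without it, at -0.33 (adjusted p = 0.169) and -0.21 (0.337), and the CUL4B call was also lost without DMSO library C. With the libraries of the comparison alone neither passed (adjusted p = 0.14 and 0.272), and limma on the loess values did not call CUL4A (0.0804). Without dTAG7 library B or C, DDB1, RBX1 and UBE2D3 were called too, at -0.35 to -0.43 log2. Neither cullin was called in the MED6 line on the TMM scale (-0.21 and -0.20 log2).

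RBX1, the RING subunit shared by several cullin ligases, went from 251, 234 and 240.3 to 42.9, 46 and 40.5 CPM in the CDK9 line (-2.49 ± 0.12 log2) and from 197, 214 and 227 to 126, 139 and 132 CPM in the MED14 line (-0.69 ± 0.11). In both lines the treated wells lay below all DMSO wells. In the MED26 line it was the only member called, from 258, 269.9 and 256 to 193, 203 and 199 CPM. Those groups did not overlap either, at -0.40 ± 0.11 log2 (adjusted p = 0.0206), but the call was lost without any 1 of the 6 libraries (adjusted p from 0.0511 to 0.117) and by limma on the loess values (0.0587). Against other genes RBX1 rose after dBET6 (0.43 ± 0.09 log2, adjusted p = 0.000137) and in the CDK9 line (0.35 ± 0.09, 0.00136), the latter lost without dTAG7 library A (0.24, adjusted p = 0.111). On the spike-in scale the same 2 treatments left 11.4% and 17.8% of its DMSO level.

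UBE2G1, which lengthens ubiquitin chains on cereblon substrates, was lowered in more comparisons than any other member: it was called lower in 7 of 12 on the spike-in scale and in 8 of 12 on the TMM scale. The 7 include the CDK9 line, THAL-SNS-032 and dBET6, where 95.3%, 96.2% and 97.1% of all genes were called lower. In the MED14, MED10, MED6 and MED31 lines 63.3%, 19%, 18.4% and 2.61% were. On the TMM scale the shares called in either direction ran from 4.47% (MED31) to 48.1% (CDK9 line). How many of all genes were called lower in as many comparisons was not computed. In the CDK9 line its wells went from 94.2, 96 and 89.8 to 6.23, 8.88 and 8.03 CPM on the spike-in scale, leaving 7.82%. After THAL-SNS-032 they read 6.92, 8.06 and 10.5 CPM and after dBET6 3.98, 5.53 and 6.51 CPM, against 90.4, 95.1 and 76.3 in wild-type DMSO. These 9 treated wells were all below every DMSO well, with 9.7% and 6.16% left after the 2 wild-type treatments. The log2 changes were -3.68 ± 0.16 (adjusted p = 7.86e-30), -3.37 ± 0.15 and -4.02 ± 0.16, each the lowest value among the 8 members in its comparison. Among all genes, 24.8% had a lower value than UBE2G1 in the CDK9 line, 21.8% after THAL-SNS-032 and 34.7% after dBET6.

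UBE2G1 also fell in 4 Mediator lines on both scales. In the MED14 line the wells went from 82.9, 81.4 and 74.7 to 32.5, 33 and 34.6 CPM (-1.25 ± 0.13 log2, adjusted p = 2.78e-12). In the MED10 line they went from 94.3, 88.1 and 88 to 59.7, 64.3 and 49.2 CPM (-0.65 ± 0.13, 8.63e-05). In the MED6 line they went from 97.1, 98.4 and 95.2 to 57.8, 63.1 and 67.1 CPM (-0.63 ± 0.12, 0.00024). No treated well reached a DMSO well in these lines, and 41.9%, 63.6% and 64.5% was left. The call in the MED6 line was lost in a fit of that comparison's libraries alone (adjusted p = 0.0822). The MED31 line, tagged on another middle-module subunit, went from 102, 98.2 and 95.8 to 75.2, 70.9 and 77.6 CPM, also without overlap (-0.41 ± 0.12, adjusted p = 0.045), a call lost without any 1 of its 6 libraries (adjusted p from 0.0809 to 0.178), with the replicate block (0.0531) and by limma on the loess values (0.187). In the MED14, MED10 and MED6 lines, 15.5%, 14.2% and 13.4% of all genes had a lower value.

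On the TMM scale UBE2G1 read 70.3, 72.1 and 69.7 CPM in DMSO and 36.7, 46.7 and 39.3 CPM after dTAG7 in the CDK9 line, and 71.7, 65.3 and 61.6 and then 43.9, 43.7 and 46 CPM in the MED14 line. Even against the other genes, then, all treated wells of these lines lay below all DMSO wells. The changes were -0.84 ± 0.15 log2 (adjusted p = 2.49e-06) and -0.57 ± 0.11 (3.5e-05), and -0.45 ± 0.11 (0.00111) in the MED10 line. Calls in these 3 lines were kept without any 1 library. The smaller falls were -0.55 log2 after THAL-SNS-032 (adjusted p = 0.00241, lost without treated library A), -0.45 after dBET6 (0.0312), -0.37 in the MED31 line (0.0153, lost without DMSO library B or dTAG7 library B), -0.36 in the MED6 line (0.0231) and -0.30 in the MED12 line (0.0465). The call after dBET6 was lost without dBET6 library A, B or C or wild-type DMSO library A, and under median-of-ratios scaling (-0.30, adjusted p = 0.17). In the MED6 line it was lost without DMSO or dTAG7 library B or C, and in the MED12 line without DMSO library A, B or C or dTAG7 library C.

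UBE2D3, which primes substrates with the first ubiquitin, was called lower on the spike-in scale in the same 4 comparisons as DDB1. It went from 527, 534 and 566 to 69.1, 68.2 and 74 CPM in the CDK9 line (-2.94 ± 0.13 log2) and from 502, 520.3 and 533 to 321, 318 and 303 CPM in the MED14 line (-0.72 ± 0.11). After THAL-SNS-032 14.9% was left and after dBET6 7.76%. Treated wells were below all DMSO wells in these 4 comparisons. UBE2D3 was called on the TMM scale in none of the 12 comparisons, with changes from -0.21 (MED26) to 0.04 log2 (THAL-SNS-032). UBE2G1 and UBE2D3 thus differed in their TMM calls, but the difference between the 2 genes was not tested.

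FKBP1A, the parent gene of the tag, lost transcripts in the same 4 comparisons. On the spike-in scale it went from 473, 529 and 500.0 to 87.3, 116 and 91.5 CPM in the CDK9 line, leaving 19.4%. From 479.5, 466 and 443 CPM in wild-type DMSO it went to 73.7, 68.1 and 110.1 CPM after THAL-SNS-032 and 54.1, 39.9 and 68.4 CPM after dBET6. The groups were well apart, with 18% and 11.6% left and log2 changes of -2.37 ± 0.13 (adjusted p = 6.4e-25), -2.47 ± 0.13 and -3.11 ± 0.14. In the MED14 line it went from 421, 438 and 458 to 289, 305 and 301 CPM, again without overlap (-0.56 ± 0.12, adjusted p = 8.33e-05). In the MED6 line it read 476, 447 and 484 CPM in DMSO and 470.2, 494 and 439 CPM after dTAG7, which overlapped (-0.01 ± 0.12, not called).

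Against other genes FKBP1A rose in the 3 comparisons with the largest loss of RNA. Its TMM-scaled wells read 353, 398 and 388 CPM in DMSO and 515, 610.5 and 448 CPM after dTAG7 in the CDK9 line (0.45 ± 0.12 log2, adjusted p = 0.0013). From 357, 307 and 338 CPM in wild-type DMSO it read 536, 364 and 492 CPM after dBET6 (0.47 ± 0.12, 0.00131). All treated wells were above all DMSO wells in both cases, and both calls were kept without any 1 library. After THAL-SNS-032 the rise was 0.31 ± 0.12 log2 (adjusted p = 0.0399), lost without wild-type DMSO library B or C or treated library B or C, and 1 treated well (356 CPM) lay below the highest DMSO well. SDCBP2-AS1, the antisense gene over the FKBP1A 3' end, rose in the MED10 and MED14 lines on the spike-in scale (1.26 and 1.16 log2, adjusted p = 0.0149 and 0.00312) and changed by -1.86 in the CDK9 line (0.000989). Its part in the FKBP1A values was not tested.

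**Figure D3:**
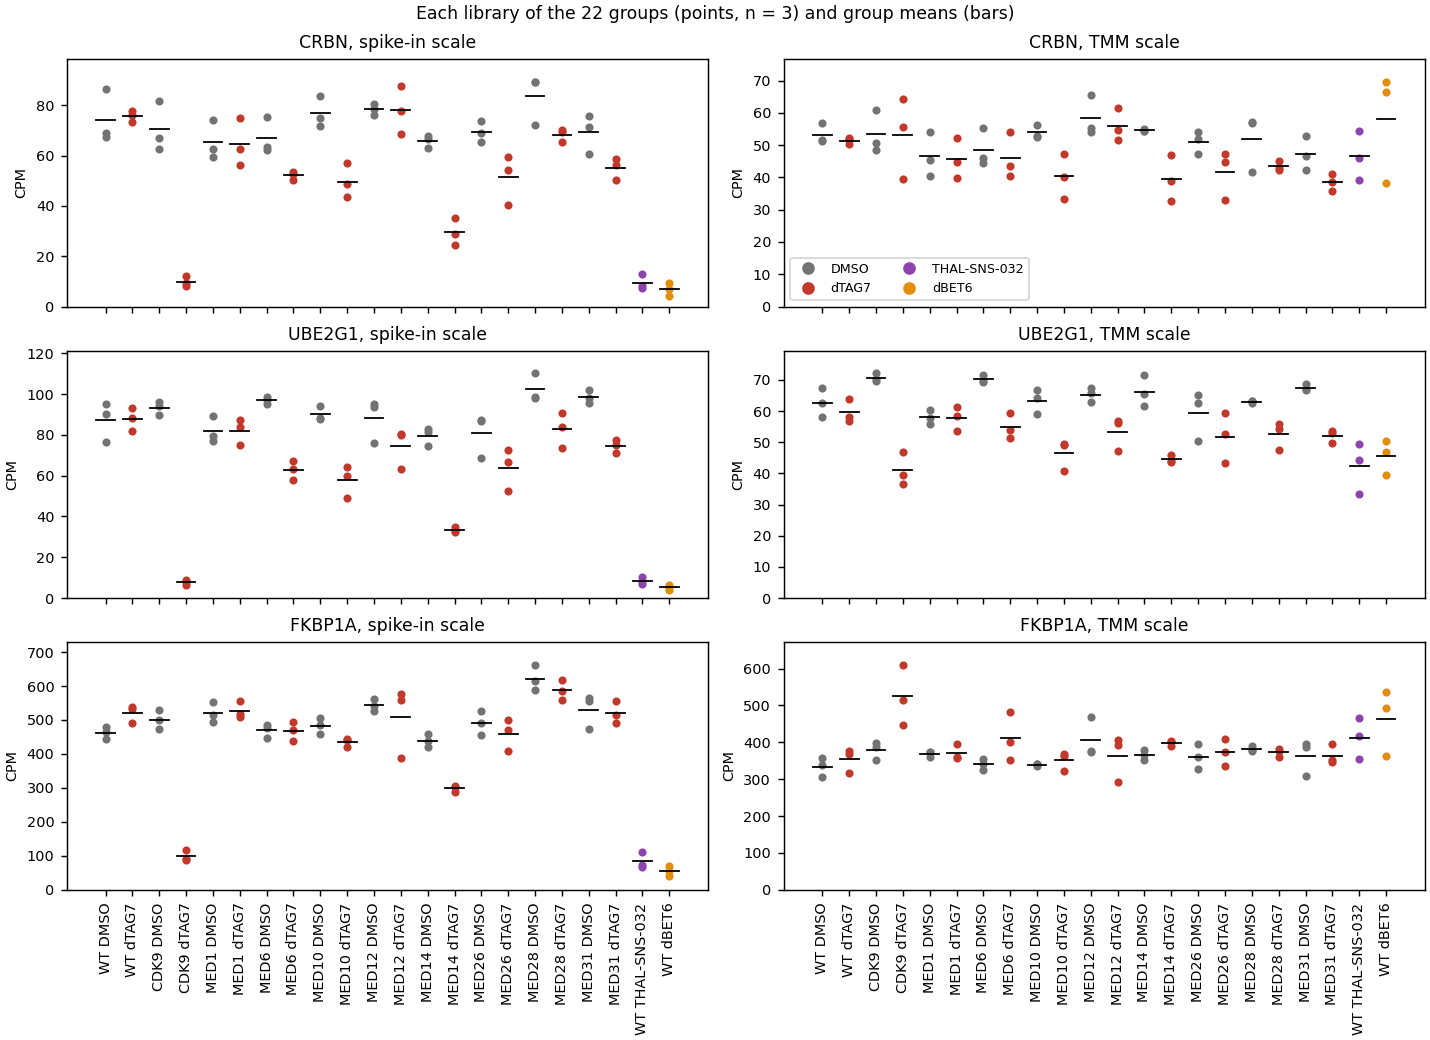
CPM of CRBN (top), UBE2G1 (middle) and FKBP1A (bottom) in each library of the 22 groups on the spike-in scale (left) and the TMM scale (right), with axes from 0. Points are libraries coloured by treatment (n = 3 per group) and bars are means. On the left the 3 degradations of CDK9 or BET proteins bring each gene far below DMSO. From 6.16% (UBE2G1, dBET6) to 19.4% (FKBP1A, CDK9 line) of the DMSO level is left. On the right the UBE2G1 means after these treatments lie below and the FKBP1A means above DMSO, with 1 FKBP1A well after THAL-SNS-032 inside the DMSO range.

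**Figure D4:**
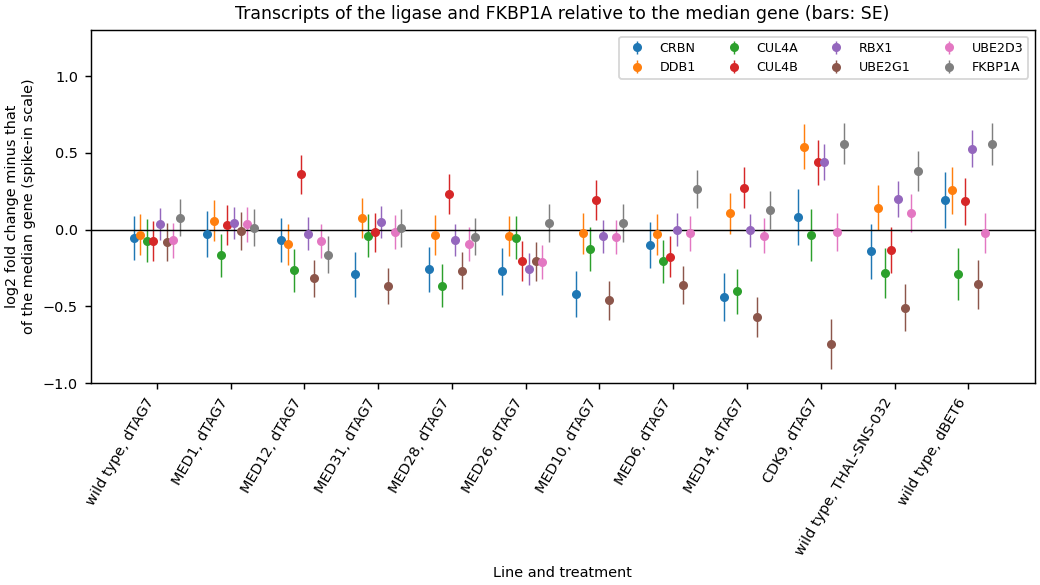
Log2 fold change of each gene on the spike-in scale minus that of the median gene in the same comparison (vertical axis), for the 12 treatments, with points for the 8 genes and bars for the SE of the fold change. UBE2G1 lies lowest in all comparisons but those of the MED1 and MED28 lines, where CUL4A does, and the MED26 line, where CRBN does. All points lie within 0.25 of 0 for wild-type cells given dTAG7.

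The dTAG7 effect in a tagged line was also set against the dTAG7 effect in wild-type cells, which all lines share. In the CDK9 line all 8 members fell further than in wild type, with differences from -2.45 (DDB1) to -3.69 log2 (UBE2G1), where 93.9% of all genes did. In the MED14 line all 8 did, with differences from -0.43 (CUL4B) to -1.27 log2 (UBE2G1), where 57.1% of all genes did. CRBN and UBE2G1 did in the MED10 line (-0.65 and -0.67 log2, adjusted p = 0.0272 and 0.006, 14.1% of all genes). UBE2G1 alone did in the MED6 line (-0.64, 0.0126, 10.9%). For the falls of CUL4A and CUL4B in MED6, RBX1 in MED26 and UBE2G1 in MED31, and the rise of CUL4B in MED12, the difference from wild type did not pass on the spike-in scale. The differences were -0.52 log2 for RBX1 in MED26, -0.42 for UBE2G1 in MED31 and 0.40 for CUL4B in MED12. A test that is not passed does not show that the effects were equal. With TMM factors, the CDK9 effect differed for 4 members (38.8% of all genes), higher for DDB1, CUL4B and RBX1 and lower for UBE2G1 (-0.77 log2). It also differed for UBE2G1 in the MED14 line (-0.49, 16.5%) and for CUL4B in the MED12 line (0.47, 2.61%).

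Whether the effect of dTAG7 differed among the 8 Mediator lines was asked in 1 test per gene. On the spike-in scale it did for 6 members, UBE2G1 (adjusted p = 4.97e-06), RBX1 (0.000279), CUL4B (0.000429), CRBN (0.000463), CUL4A (0.00104) and UBE2D3 (0.00125), where 46.2% of all genes were called (edgeR). DDB1 (0.0519) and FKBP1A (0.0823) did not pass. The effects differed on the TMM scale for CUL4B alone (0.00128), where 12.4% of all genes were called. The CUL4B values ran from -0.20 log2 in the MED6 and -0.20 in the MED26 line to 0.39 in the MED12 line on that scale.

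Both wild-type degraders recruit the same ligase but were given at different doses, 100 nM dBET6 and 250 nM THAL-SNS-032, for 6 h, so their values stand side by side and a difference between them is not one of compound alone. On the spike-in scale 7 of the 8 members were lower after dBET6 than after THAL-SNS-032, where 53.4% of all genes were. The differences ran from -0.49 and -0.48 (CUL4B and RBX1) to -0.94 log2 (UBE2D3, adjusted p = 1.74e-08), and CRBN did not pass (-0.47, adjusted p = 0.0675). The median of all genes was -0.82. Under TMM scaling edgeR called 0 members (4.64% of all genes), 2 had an unadjusted p under 0.05, and scaling by median of ratios called 1.

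CDK9 was targeted in separate ways in the tagged line and by THAL-SNS-032, each read against its own DMSO. The effects on the members differed by -0.31 (UBE2G1) to 0.50 log2 (CUL4B) on the spike-in scale, and edgeR called 0 (2.64% of all genes), with 1 at an unadjusted p under 0.05. DESeq2 was not run on this difference. For CUL4B the 95% interval was 0.09 to 0.91 (adjusted p = 0.172), which does not show that the 2 treatments acted alike. On the TMM scale CUL4B was called, 0.54 log2 higher under dTAG7 in the CDK9 line than under THAL-SNS-032 (95% interval 0.24 to 0.85, adjusted p = 0.0238), where 5.47% of all genes were called.

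Other genes of the ubiquitin and degrader pathways were counted from lists chosen with earlier results of these data known. After dTAG7 in the CDK9 line all tested genes of 10 lists fell on the spike-in scale: 11 of neddylation (the modification that switches cullins on), 12 of the COP9 signalosome and the exchange factors that recycle cullins, 11 of ubiquitin and its E1 and E2 enzymes, 24 other receptors and partners of CUL4-DDB1, 12 of other cullin ligases, 12 of the FKBP family, 12 known neosubstrates of cereblon, 6 genes of the degraders' targets, 11 of the p97 unfoldase and 2 efflux pumps. The same counts fell after THAL-SNS-032 and dBET6, except that 1 of the 2 pumps fell after dBET6. With 95.3% or more of all genes lower, these counts stand at the background. In wild-type cells given dTAG7, 0 genes of any of the 10 lists were called on either scale, where 0% of all genes were.

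In the MED14 line, where 63.3% of all genes fell, 7 of 11 neddylation genes fell on the spike-in scale, 10 of 12 COP9 and exchange genes, 10 of 11 ubiquitin, E1 and E2 genes, 9 of 11 unfoldase genes, 10 of 12 genes of other cullin ligases (1 rose), 15 of 24 CUL4-DDB1 partners (1 rose), 6 of 12 FKBP genes, 11 of 12 neosubstrates, 2 of 6 target genes (1 rose) and 1 of 2 pumps. Their median changes were -0.77, -0.77, -0.61, -0.72, -0.56, -0.67, -0.47, -1.06, -0.05 and -0.55 log2 in that order, against -0.69 for all genes. On the TMM scale, where 30% of all genes were called in either direction, the lists gave in the same order 2 lower and 1 higher, 1 and 0, 1 and 1, 1 and 2, 2 and 3, 7 and 6, 1 and 2, 6 and 1, 0 and 4, and 1 and 0. Named genes were those with the lowest p in each direction among genes called on both scales. DCUN1D5, which helps to load NEDD8 on cullins, changed by -1.90 ± 0.18 log2 and NAE1, a subunit of the NEDD8-activating enzyme, by -1.23 ± 0.12 (TMM -1.21 and -0.55). DCAF4 and DCAF16, substrate receptors of the same adaptor as cereblon, changed by -2.70 ± 0.20 and -1.80 ± 0.13 (TMM -2.02 and -1.11). DDB2, the receptor for ultraviolet DNA damage, rose by 0.39 ± 0.14 (adjusted p = 0.0129, TMM 1.08). Among neosubstrates, the transcription factor gene IKZF2 changed by -2.20 ± 0.18 and the translation termination factor gene GSPT1 by -1.28 ± 0.08 (TMM -1.51 and -0.60), and BRD2, a BET protein gene, rose by 0.45 ± 0.15 (adjusted p = 0.00904, TMM 1.14).

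DCAF4, IKZF2, BRD2 and DDB2 were also called in other Mediator lines. In the MED10 line, where 19% of all genes fell, 4 of 11 neddylation genes fell, 4 of 12 COP9 and exchange genes, 1 of 11 ubiquitin, E1 and E2 genes, 2 of 11 unfoldase genes, 1 of 12 genes of other cullin ligases, 6 of 24 CUL4-DDB1 partners (1 rose), 2 of 12 FKBP genes, 6 of 12 neosubstrates, 0 of 6 target genes (1 rose) and 1 of 2 pumps. In the MED6 line, where 18.4% fell, the same lists gave 2, 2, 2, 5, 5, 9 (1 rose), 2, 6, 0 (1 rose) and 1. In the MED12, MED26, MED28 and MED31 lines 3.4%, 2.88%, 4.07% and 2.61% of all genes fell. No list but the neosubstrates had more than 1 fall there, and of the 12 neosubstrates 1, 3, 3 and 5 fell in that order. DCAF4 fell by 1.69 on the log2 scale in the MED10 line, 1.48 in MED12, 1.04 in MED28 and 0.76 in MED31. IKZF2 fell by 1.90 in the MED10 line, 1.40 in MED28 and 1.28 in MED6, and BRD2 rose by 0.96 in the MED10 line, 0.83 in MED26, 0.67 in MED6 and 0.61 in MED31. DDB2 rose by 0.64 in the MED10 line, 0.49 in MED12 and 0.43 in MED6. All of these were called on both scales by edgeR with Benjamini-Hochberg adjustment. In the MED1 line 0 genes of the 10 lists were called on the spike-in or the TMM scale.

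In the CDK9 line 48.1% of all genes were called in either direction on the TMM scale. Of the FKBP genes, 6 of 12 were called in either direction on that scale, a count near that share. These 6 rose and 0 fell, and the share of all genes that rose is not given here. The median of the 12 was 0.69 log2 against -0.09 for all genes. The neosubstrates gave 7 lower and 2 higher with a median of -0.99, and the CUL4-DDB1 partners 6 and 7 with -0.12. The other lists gave 2 lower and 1 higher (neddylation), 3 and 2 (COP9), 3 and 3 (E1 and E2), 4 and 2 (other cullin ligases), 3 and 0 (targets), 2 and 3 (unfoldase) and 0 and 1 (pumps). KEAP1, the CUL3 receptor for NRF2, changed by -4.89 ± 0.19 log2 on the spike-in scale and -2.05 ± 0.17 on the TMM scale, and CDC34, a ubiquitin-conjugating enzyme of cullin ligases, by -4.34 ± 0.19 and -1.51 ± 0.18. After dBET6 FKBP genes gave 2 higher and 0 lower on the TMM scale (41.4% of all genes called), and after THAL-SNS-032 also 2 and 0 (30%).

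Over the 22 group means of log2 CPM on the TMM scale, the genes with values most like those of CRBN, out of 10207 with at least 5 CPM on average, were ANGPT2 (r = 0.858), LANCL2 (0.810), Z93930.2 (0.806), ADGRL1 (0.789) and NUDT3 (0.786). For FKBP1A they were MYL6B (0.939), SELENOW (0.915), NDUFB11 (0.913), GUK1 (0.900) and SRP14 (0.898). Within the set, UBE2G1 and CUL4A went together (r = 0.738), as did RBX1 and FKBP1A (0.774), while UBE2G1 and FKBP1A ran opposite (-0.617). These correlations are descriptions over groups that share lines and, in the wild type, controls. A property that the choice of genes did not use is gene length: the members span 21963 bp (RBX1), 24195 bp (FKBP1A), 35100 bp (CRBN), 43146 bp (DDB1), 51186 bp (CUL4B), 58916 bp (CUL4A), 74514 bp (UBE2D3) and 97370 bp (UBE2G1). Across the 8 members, Spearman's rho between span and TMM change was -0.714 in the CDK9 line, -0.786 for THAL-SNS-032, -0.881 for dBET6 and -0.452 in the MED14 line. Across 12858 genes it was 0.0616, 0.092, 0.0835 and -0.0118, so the order seen in the 8 members was not seen over all genes. The 8 values of a comparison come from the same libraries and genes are not independent replicates.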

How the data were processed

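The measurements were read counts per gene in 66 libraries of 22 groups (n = 3 each), grouped by the sample titles. The authors deposited a table of raw counts and a table of loess-normalized signal values, per the file headers and names; the second served as an alternative only. Per the submitters' processing notes, bedtools 2.26.0, HTSeq 0.6.0, STAR 2.5.2b and the build hg38 were used, while the strand setting, annotation release and normalization program are not given in the sources used here. Of the genes, 13297 of 13331 matched a GENCODE 29 symbol. Promoter sequences came from RefSeq.

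Counts were tested with edgeR 4.0.16 (R 4.3.3, glmQLFit and glmQLFTest) in 1 fit of all libraries, with group means, filterByExpr and Benjamini-Hochberg adjustment at 0.05. Library sizes were the totals of 37 ERCC and 7 SIRV spike-ins (12515 genes tested); the same fit with TMM factors is given beside it (12892 genes). The code was tested on simulated data. Alternatives were TMM and median-of-ratios scaling, no filter or at least 20 counts in 3 libraries, DESeq2 1.42.0, limma 3.58.1 on the signal values (log2 with pseudocount 1), fits of single comparisons, a replicate block and leaving out each library; leaving out libraries on the TMM scale was chosen after seeing the data. Library depth ran from 439261 to 4337368 counts, and the lowest member count was 16.

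The members and gene lists were chosen with earlier results of these data known. Members are always named; of each list, at most 2 falling and 2 rising genes per comparison could be named, those with the lowest p among genes called the same way on both scales, and for CRBN and FKBP1A the 5 genes of highest correlation.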

Additional observations from a re-analysis of the deposited data

Results flagged for a closer look

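The results here were singled out because the effect of a treatment differed between lines by a test of the difference itself (edgeR with Benjamini-Hochberg adjustment, n = 3 per group). The comparisons with the wild-type effect share the wild-type libraries, and in the CDK9 and MED14 lines a fall beyond wild type was the rule for most genes.

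On the spike-in scale the dTAG7 effect in the CDK9 line and the effect in wild type differed for CRBN (adjusted p = 2.34e-17), DDB1 (1.03e-17), CUL4A (2.36e-19), CUL4B (3.11e-18), RBX1 (5.35e-23), UBE2G1 (1.39e-24), UBE2D3 (2.27e-24) and FKBP1A (4.44e-20). The MED14 line differed from wild type for CRBN (7.18e-06), DDB1 (0.00305), CUL4A (6.4e-06), CUL4B (0.0451), RBX1 (7.68e-06), UBE2G1 (3.36e-08), UBE2D3 (7.68e-05) and FKBP1A (0.000324). The MED10 line differed for CRBN (0.0272) and UBE2G1 (0.006), and the MED6 line for UBE2G1 (0.0126).

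Among the 8 Mediator lines the dTAG7 effects differed for CRBN (0.000463), CUL4A (0.00104), CUL4B (0.000429), RBX1 (0.000279), UBE2G1 (4.97e-06) and UBE2D3 (0.00125) on the spike-in scale, and for CUL4B (0.00128) on the TMM scale.

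On the TMM scale the CDK9 line differed from wild type for DDB1 (0.00349), CUL4B (0.014), RBX1 (0.0361) and UBE2G1 (0.000436), the MED14 line for UBE2G1 (0.0151) and the MED12 line for CUL4B (0.0361). CUL4B also differed between dTAG7 in the CDK9 line and THAL-SNS-032 in wild-type cells (0.0238).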

How the results depend on the processing

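The 40 calls among the 96 treatment changes on the spike-in scale became 41 with at least 20 counts in 3 libraries, 38 with a replicate block, 43 with the libraries of each comparison alone, 45 with DESeq2, 36 with limma on the loess values and 38 to 43 when 1 library was left out. These totals hide moves in both directions: with the libraries of each comparison alone 8 results were gained and 4 lost, baseline included, among them all 3 calls in the MED6 line, while the MED10 line went from 2 to 6. With limma 4 were lost (CUL4B in MED12, RBX1 in MED26, UBE2G1 in MED31 and CUL4A in MED6). Scaling to the genes instead gave 23 (TMM) and 20 (median of ratios). The 1 baseline call became 0 with TMM scaling, median-of-ratios scaling, no filter or the replicate block, 2 with the libraries of each comparison alone or DESeq2, and 0 to 1 when 1 library was left out. The differences from the wild-type dTAG7 effect numbered 19 on the spike-in scale, 6 with TMM, 8 with median of ratios and 16 to 23 when 1 library was left out. Member differences between dBET6 and THAL-SNS-032 numbered 7, then 0 with TMM, 1 with median of ratios and 5 to 8. Differences between the CDK9 line and THAL-SNS-032 numbered 0, then 1 with TMM, 1 with median of ratios and 0 to 0. The test over the DMSO groups called 3 members, 1 with TMM, 1 with median of ratios and 0 to 4, where the MED14 DMSO libraries A and B and the MED28 DMSO libraries A and C decided the lower counts. The test over the Mediator lines called 6, then 1 with TMM, 1 with median of ratios and 6 to 8.

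Scaling to the genes removes the loss of RNA by construction, and the sign then changed for 16 falls with TMM factors and for 19 with median of ratios. Under TMM scaling the log2 values were, in the CDK9 line DDB1 0.45, CUL4B 0.35, RBX1 0.35, FKBP1A 0.45, in the MED14 line DDB1 0.11, CUL4B 0.28, FKBP1A 0.13, after dBET6 CRBN 0.10, DDB1 0.17, CUL4B 0.10, RBX1 0.43, FKBP1A 0.47 and after THAL-SNS-032 DDB1 0.088, RBX1 0.15, UBE2D3 0.039, FKBP1A 0.31. Under median-of-ratios scaling they were, in the CDK9 line CRBN 0.10, DDB1 0.56, CUL4B 0.46, RBX1 0.46, FKBP1A 0.57, in the MED14 line DDB1 0.14, CUL4B 0.31, RBX1 0.034, FKBP1A 0.16, after dBET6 CRBN 0.24, DDB1 0.32, CUL4B 0.25, RBX1 0.58, UBE2D3 0.047, FKBP1A 0.61 and after THAL-SNS-032 DDB1 0.16, RBX1 0.22, UBE2D3 0.11, FKBP1A 0.38.

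Of the 23 TMM calls, median of ratios did not make those for CUL4A after dBET6 (-0.24, adjusted p = 0.124) and THAL-SNS-032 (-0.25, 0.0864), UBE2G1 after dBET6 (-0.30, 0.17) and CRBN in the MED10 line (-0.38, 0.054), and it added DDB1 after dBET6 (0.32, 0.00934).

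Replicate letters did not pair the samples: 0 of 36 same-letter pairs correlated above 0.1 (r from -0.217 to 0.0554), and in 11 of 36 the own letter gave the highest correlation. With the replicate block, 38 treatment calls were made, and CUL4B in the MED12 line and UBE2G1 in the MED31 line (both adjusted p = 0.0531) and FKBP1A in MED28 DMSO (0.0567) were no longer called; the differences from wild type stayed at 19. Low counts limit CRBN and UBE2G1 most, with as few as 22 and 16 counts in a degrader-treated library. Protein levels, and so ligase activity, were not measured in these files.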
